A study of Mus musculus with 83 samples.

Results

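Cell cycle genes were followed as a set of 42 named genes across the lifespan of the mouse colon, 19 of them acting in the G1 phase, at the G1/S transition or in DNA replication (called G1/S here) and 23 acting in G2 or mitosis (G2/M). They were taken by symbol from a table of 37764 genes, to whose identifiers symbols were matched, and all 42 were among the 18325 genes with enough counts to be tested. The libraries came from polyadenylated RNA of the proximal colon of 83 male C57BL/6J/Ukj mice, an inbred strain, 1 library per mouse. The groups were ages only, with 16 mice each at ages 3, 9 and 15 months, 17 mice aged 24 months and 18 mice aged 28 months, none with a treatment or an altered allele named in the labels, and kept for aging under controlled conditions, so that the comparisons ask how the colon changes over adult life. Different mice were sampled at each age, so no mouse was followed over time, and females were not sampled.

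The cell cycle runs from G1, in which a cell grows and decides to divide, through S, in which it copies its DNA, and G2 to mitosis, in which the chromosomes are parted. Cyclin D with Cdk4 and cyclin E with Cdk2 release the E2F factors in G1, and E2F then switches on the genes of DNA replication and of nucleotide supply. The promoters of mitotic genes often hold CHR elements and CCAAT boxes. In resting cells the DREAM complex holds these genes down through CHR elements, later in the cycle the MuvB core of that complex works with B-Myb and FoxM1 to switch them on, and the CCAAT boxes are bound by NF-Y. In the colon, dividing cells lie in the lower part of the crypts, where stem cells and their dividing daughters renew the epithelium throughout life, and dividing lymphocytes can add to them in lymphoid follicles.

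Promoters are shown for the 3 members of each phase with the lowest p over the 5 ages, among those in the RefSeq table of GRCm38.p6. These are the members whose levels moved most clearly. Each stretch holds the 250 bases before the start in that table, on the strand of the gene and from 5′ to 3′. That of Cdc6 lies after the gene start of GENCODE vM21 (98907801), the annotation used for positions, and so inside the gene as annotated there. Capitals mark the letters of a CHR element, a CCAAT box or an E2F site, searched on both strands. The CHR letters were TTTGAA and, as the other form, TTCGAA. The E2F letters were TTTCCCGC, TTTCGCGC, TTTGCCGC and TTTGGCGC. The letters overlap in none of these 6 stretches, and a match is a description of the letters and not of a bound factor.
Tyms (chr5:30073626-30073875, minus strand, no match): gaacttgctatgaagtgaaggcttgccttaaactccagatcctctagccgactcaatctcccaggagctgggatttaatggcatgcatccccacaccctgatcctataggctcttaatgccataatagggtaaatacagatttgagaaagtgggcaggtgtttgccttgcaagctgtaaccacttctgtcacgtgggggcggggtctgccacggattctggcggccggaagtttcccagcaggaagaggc
Cdc6 (chr11:98907901-98908150, plus strand, 1 E2F match): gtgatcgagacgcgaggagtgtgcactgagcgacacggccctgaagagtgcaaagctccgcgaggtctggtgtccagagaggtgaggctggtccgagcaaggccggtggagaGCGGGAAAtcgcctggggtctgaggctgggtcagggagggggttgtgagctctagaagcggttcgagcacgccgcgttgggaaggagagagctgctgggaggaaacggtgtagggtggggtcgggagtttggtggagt
Ccne1 (chr7:38107491-38107740, minus strand, no match): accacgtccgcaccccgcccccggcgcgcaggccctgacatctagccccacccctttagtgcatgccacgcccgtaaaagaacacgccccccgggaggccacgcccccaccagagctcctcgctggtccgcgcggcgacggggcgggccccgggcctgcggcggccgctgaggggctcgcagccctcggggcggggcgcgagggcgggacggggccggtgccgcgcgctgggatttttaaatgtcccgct
Bub1 (chr2:127831860-127832109, minus strand, 2 CCAAT matches): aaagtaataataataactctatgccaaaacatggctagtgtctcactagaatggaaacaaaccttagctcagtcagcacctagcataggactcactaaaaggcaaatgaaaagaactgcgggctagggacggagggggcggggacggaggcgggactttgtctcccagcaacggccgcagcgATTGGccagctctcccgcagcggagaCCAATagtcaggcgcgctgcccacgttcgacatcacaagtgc
Aurka (chr2:172370571-172370820, minus strand, 2 CCAAT matches): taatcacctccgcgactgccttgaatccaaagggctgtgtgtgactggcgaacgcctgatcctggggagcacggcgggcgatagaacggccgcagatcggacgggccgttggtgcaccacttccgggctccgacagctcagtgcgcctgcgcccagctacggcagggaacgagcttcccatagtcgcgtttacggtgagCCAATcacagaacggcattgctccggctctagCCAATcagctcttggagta
Top2a (chr11:99024190-99024439, minus strand, 4 CHR and 6 CCAAT matches): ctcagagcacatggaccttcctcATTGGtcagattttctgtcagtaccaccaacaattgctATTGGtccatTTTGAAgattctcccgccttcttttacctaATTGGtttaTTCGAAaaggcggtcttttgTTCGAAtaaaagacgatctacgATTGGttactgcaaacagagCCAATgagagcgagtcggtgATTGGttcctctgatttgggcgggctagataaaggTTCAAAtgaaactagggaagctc

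Of the 42 members, 33 had a promoter in that table, and Mcm4, Gins2, Ccnd1, Ccne2, Ccna2, Foxm1, Aurkb, Kif20a and Tpx2 had none. The CCAAT letters stood in 16 of 18 G2/M promoters (88.9%) and in 9 of 15 G1/S promoters (60%), against 34.4% of all 27025 promoters of the same length. At least 2 CCAAT boxes were found in 11 G2/M promoters (61.1%) and 5 G1/S promoters (33.3%), against 10.5% of all. The letters of a CHR element stood in 8 G2/M promoters (44.4%), each of which also held CCAAT, and in 2 G1/S promoters (13.3%), against 17.4% of all. The letters of an E2F site stood in 5 G1/S promoters (33.3%), those of Mcm5, Mcm6, Mcm7, Cdk2 and Cdc6, and in 1 G2/M promoter (5.56%), that of Cdk1, against 1.92% of all. The windows of Cdc6, Mcm7 and E2f1 lie wholly after the gene start of GENCODE vM21, inside the gene as annotated there. Cdc6 and Mcm7 are among the G1/S promoters with E2F letters. These shares describe the letters in the window and were not tested.

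The members were measured with ample counts. The libraries held between 23026370 and 75838290 read pairs counted on genes, with a median of 35495123, and the lowest count of the 13 members described one by one was 122, for Ccne1 at 9 months. In transcripts-per-million units (TPM), a scale that divides by gene length and so allows genes to be compared, the mean over 83 mice ran from 5.33 ± 0.989 (SD) for Cdc6 to 134 ± 13 for Pcna among G1/S members, with a median of 27.4. Cyclin D1 (Ccnd1) at 92.5 ± 12.2 TPM and its kinase Cdk4 at 86 ± 5.51 TPM followed Pcna, the sliding clamp of DNA polymerase, and both lay far above the cyclins E, with Ccne1 at 7.97 ± 1.58 and Ccne2 at 8.54 ± 1.85 TPM. Among G2/M members the means ran from 6.68 ± 1.19 TPM for the centromere protein Cenpf to 61.8 TPM for cyclin A2 (Ccna2) and for Cdc20, an activator of the anaphase promoting complex, with a median of 21.8. The proliferation marker Mki67 stood at 55.6 ± 8.83 TPM and the DNA topoisomerase Top2a at 45.5 ± 7.27 TPM.

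All 5 age groups carried the defining markers of colon epithelium at high levels, Epcam between 1330 and 1440 and Krt8 between 3930 and 4120 counts-per-million (CPM, scaled between libraries by the TMM method) on average. A smooth muscle score, the mean log2 CPM of 6 muscle genes, was at least 8.36 in 78 mice. In the other 5 it was between 6.96 and 7.95, namely 3-month replicates 10, 12 and 16 and 9-month replicates 4 and 6, and counts without these mice are given where they are relevant. The 15-month replicate 16 had the lowest epithelial score of the 83 mice (9.54, where the next was 9.94) and the lowest crypt stem cell score (3.69). Without it 22 members were called at 28 against 15 months, 19 against 3 months and 11 against 24 months, and 0 at 24 against 15 months. Library preparation was done in 3 batches of 28, 29 and 26 mice, each with mice of every age.

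At 28 months up to 23 of the 42 cell cycle genes were lower than at a younger age, by modest amounts, and none was called higher. Against 15 months, 19 of 42 members fell (45.2%), and the largest changes were those of Cdc6, which fell by 26.2%, Bub1, which fell by 21.1%, and Ccne1, which fell by 20.9%. Against 24 months 12 members fell (28.6%), and against 3 months 23 fell (54.8%). Across the younger ages almost nothing passed: 0 members between 3 and 9 months, 0 between 9 and 15 months and 1, Ccne2, between 15 and 24 months. All counts are from edgeR's quasi-likelihood F-test in 1 fit of age and library batch over 83 mice, at a Benjamini-Hochberg adjusted p below 0.1 over the 18325 genes tested. In bulk tissue fewer dividing cells and less of these RNAs in each dividing cell cannot be told apart.

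Read against all genes, the share of the 42 members that fell was higher in each comparison with 28 months, least so for G2/M members against 15 months. Between 24 and 28 months, 6.01% of all genes tested were lower and 5.66% higher at the older age, while 28.6% of the members were lower. Between 15 and 28 months, 22.2% of all genes were lower and 20.2% higher, against 45.2% of the members lower. Between 3 and 28 months, 25.9% of all genes were lower and 23.5% higher, against 54.8% of the members lower. From 3 to 9 months, 3.64% of all genes were higher and 5.05% lower, and 0 of 42 members were called by edgeR or by DESeq2, with 3 members at an unadjusted p below 0.05. From 9 to 15 months, 0.251% of all genes were higher and 0.18% lower, and 0 members were called by either tool, with 4 at an unadjusted p below 0.05. From 15 to 24 months, 6.28% of all genes were higher and 7.24% lower, so that the single member called, 2.38% of the 42, did not stand above the background. By phase, 12 of 19 G1/S members (63.2%) and 7 of 23 G2/M members (30.4%) fell from 15 to 28 months, so that the G2/M share was the nearer to the 22.2% of all genes. The G2/M count there was between 3, without 15-month replicate 1, 13 or 15, and 10, without 28-month replicate 3, and the G1/S count between 11 and 13 when any 1 mouse was left out. From 24 to 28 months 5 G1/S (26.3%) and 7 G2/M members (30.4%) fell, with 2 to 9 and 3 to 8 in fits without 1 mouse, and from 3 to 28 months 10 (52.6%) and 13 (56.5%) fell, with 6 to 11 and 4 to 15. The lowest counts against 24 months were reached without 24-month replicate 1, among others, and those against 3 months without 3-month replicate 14 in both phases and also without 28-month replicate 9 for G1/S. The comparisons with 28 months share the 28-month mice and are not independent of each other.

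A test of any difference over the 5 ages called 25 members (59.5%), close to the 54.9% of all genes it called. It called 9 of 19 G1/S members (47.4%) and 16 of 23 G2/M members (69.6%). These counts did not tell the phases apart when 1 mouse was left out. The G2/M count was 8 without 28-month replicate 6 and 10 without 9-month replicate 2 or 6. Its range was 8 to 19, and that of the G1/S count 8 to 12. A test of departure from a straight line in age called 5 members (11.9%), namely Tyms, Cdc6, Ccnd1, Rrm2 and Aurka, against 16.2% of all genes. The count of 5 rested on single mice. It was 14 without 3-month replicate 14, 10 without 3-month replicate 5, 8 without 3-month replicate 1 or 28-month replicate 3 or 4, and 2 without 3-month replicate 13 or 15. It was 3 without 3-month replicate 10, 9-month replicate 1, 4, 9, 12 or 13, 15-month replicate 1, 3, 8, 10, 13 or 15, 24-month replicate 1, 3, 4, 7, 9, 11, 12 or 14, or 28-month replicate 7, 9, 11, 13 or 16. The count of 25 over the 5 ages was 16 without 28-month replicate 6.

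**Figure D1:**
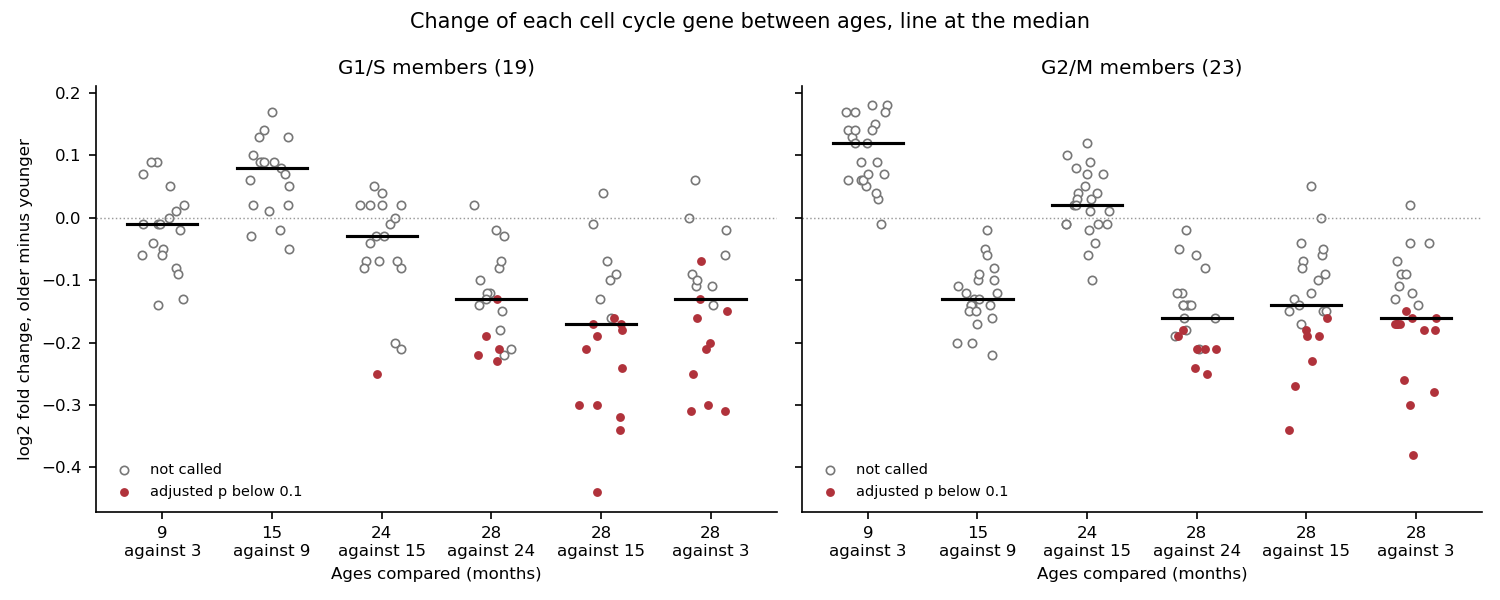
Each point is 1 cell cycle gene, with its log2 fold change (older minus younger age) on the vertical axis for 6 comparisons of ages, G1/S members on the left and G2/M members on the right. Filled points passed an adjusted p below 0.1, black lines are medians, and nearly all points of both phases lie below 0 in the comparisons with 28 months.

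Between 3, 9 and 15 months the fitted values of the phases had different signs, without any member passing the threshold there. Between 3 and 9 months the median log2 fold change of G2/M members was 0.12, with 22 of 23 above 0 in the fit, and that of G1/S members was -0.01, where the median over all genes was -0.006. Between 9 and 15 months the G2/M median was -0.13, with 23 of 23 below 0, and the G1/S median was 0.08, with 3 of 19 below 0. Within batches 1, 2 and 3 the G2/M medians of this step were -0.01, -0.2 and -0.26, with 12 of 23 members lower in all 3. Between 15 and 24 months both stood near 0, at 0.02 for G2/M and -0.03 for G1/S. Within batches 1, 2 and 3 the G2/M medians there differed in sign, at -0.15, 0.05 and 0.2. The G1/S medians were -0.02, -0.01 and 0.02. Between 24 and 28 months the medians were -0.16 for G2/M and -0.13 for G1/S, and between 15 and 28 months -0.14 and -0.17. The members of a phase move together from mouse to mouse, as shown further on, so a shared sign over many members is not many independent observations.

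In comparisons with 28 months the medians within library batches were mostly below 0, but the number of calls changed without a batch. Each fit without a batch has fewer mice. The share of all genes called in those fits is not given, so the counts cannot be set against it. The 12 calls against 24 months became 1 without batch 1, 5 without batch 2 and 1 without batch 3. The 23 calls against 3 months became 10, 14 and 6 in the same order, and the 19 calls against 15 months became 6 without batch 1, 18 without batch 2 and 15 without batch 3. The G2/M count against 15 months, 7 with all mice, was 1 without batch 1, and the G1/S count fell there as well. Between 15 and 28 months the G1/S medians were -0.29, -0.05 and -0.07 in batches 1, 2 and 3, with 12 of 19 members lower in all 3, and the G2/M medians were -0.19, -0.08 and -0.01, with 12 of 23 lower in all 3. Between 3 and 28 months the G2/M medians were -0.13, -0.11 and -0.19, with 19 of 23 lower in all 3, while the G1/S medians were -0.13, 0 and -0.23, with 9 of 19 lower in all 3. Between 24 and 28 months the G2/M medians were -0.03, -0.14 and -0.23 and the G1/S medians -0.24, -0.05 and -0.12. The G1/S median against 15 months was thus lowest in batch 1. A test of whether the age effect differed between batches called 0 of 42 members by edgeR, with 0 at an unadjusted p below 0.05, and it was not run in DESeq2. Over all 18325 genes it called 4, with 3.78% at an unadjusted p below 0.05. The count of 0 thus says little about the members.

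The mean log2 CPM over the members of a phase gives the same picture by mouse. For G1/S it was 5.08 ± 0.207 (SD, n = 16) in 3-month mice, 5.07 ± 0.127 (n = 16) at 9, 5.14 ± 0.118 (n = 16) at 15, 5.09 ± 0.137 (n = 17) at 24 and 4.94 ± 0.205 (n = 18) at 28 months. For G2/M it was 5.14 ± 0.365, 5.28 ± 0.137, 5.14 ± 0.17, 5.17 ± 0.153 and 5.01 ± 0.175 at the same ages. The ranges of all ages overlapped in both phases, and the 28-month mice extended lowest for G1/S, to 4.44, whereas the lowest G2/M mean, 4.31, was that of a 3-month mouse.

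**Figure D2:**
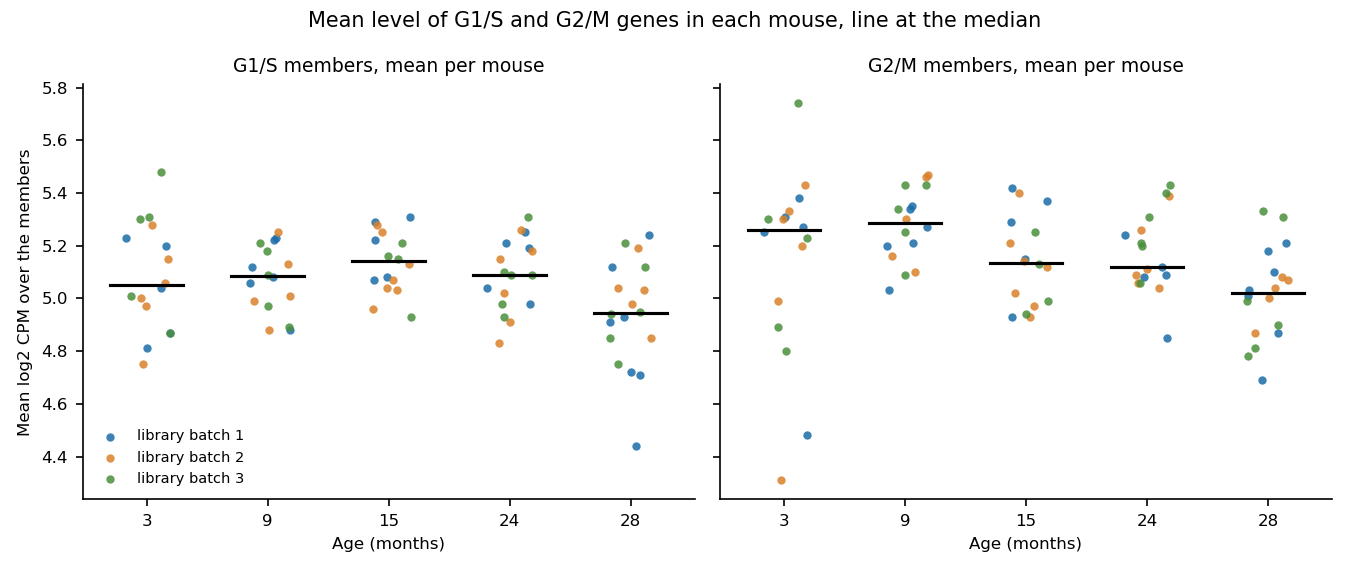
Each point is 1 mouse, coloured by library batch, with the mean log2 CPM over the 19 G1/S members on the left and the 23 G2/M members on the right against age in months. Black lines are medians, the 28-month mice lie lowest in the median in both panels, and the 3-month mice spread most widely for G2/M, from 4.31 to 5.74.

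The mean log2 CPM of a member was lowest at 28 months for 17 of 19 G1/S and 21 of 23 G2/M members. These are 89.5% and 91.3%, against 32.8% of all genes tested. The exceptions were Cdt1, a loader of the replicative helicase, and Cdk2, which were lowest at 9 months, and Ccnb2 and Cenpf, which were lowest at 15 months. Ranges of single mice overlapped between the ages for every member and every comparison, so no member separated the groups.

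Of the 3 genes of nucleotide supply, 3 fell against 15 months, 2 against 3 months and 2 against 24 months, where 22.2%, 25.9% and 6.01% of all genes were lower. Thymidylate synthase (Tyms), which makes dTMP, had the lowest p of the G1/S members over the 5 ages. Its CPM ran from 18.8 to 36.1 with a median of 26.3 at 3 months, from 22.5 to 30.3 (median 25.7) at 9, from 24 to 30.2 (26.7) at 15, from 23.2 to 30.5 (25.1) at 24 and from 16.9 to 28.2 (22.4) at 28 months. Although the ranges overlapped, 12 of 18 mice at 28 months lay below the lowest 15-month mouse and 17 below the 15-month median. The log2 fold change was -0.30 ± 0.06 (SE) at 28 against 15 months (adjusted p = 2.12e-05 by edgeR), -0.22 against 24 months (adjusted p = 0.00788) and -0.25 against 3 months (adjusted p = 0.000246). It was -0.41, -0.16 and -0.27 against 15 months in the 3 batches, and the call against 24 months was lost without batch 1 (adjusted p = 0.261). Of ribonucleotide reductase, which supplies deoxyribonucleotides, the large subunit Rrm1 fell by 11.3% and the small subunit Rrm2 fell by 19% against 15 months (adjusted p = 0.0247 and 0.00543 by edgeR). Against 3 months Rrm1 fell by 12.9%, and Rrm2 did not pass (log2 fold change -0.14, 95% confidence interval -0.31 to 0.04).

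Of the 10 genes that license origins or work at the replication fork, 5 (50%) fell against 15 months, 4 (40%) against 3 months and 3 (30%) against 24 months, and 0 rose, where 22.2%, 25.9% and 6.01% of all genes were lower. Cdc6, which loads the helicase at origins, was the largest change in the set. It ran from 6.48 to 14.8 CPM (median 8.71) at 3 months, from 7.24 to 13.1 (9.37) at 9, from 8.55 to 12.8 (10.4) at 15, from 6.69 to 11.5 (9) at 24 and from 5.06 to 10 (7.68) at 28 months. Its median was highest at 15 months, and all 18 mice at 28 months lay below that median, 13 of them below the lowest 15-month mouse. The fall was -0.44 ± 0.09 on the log2 scale against 15 months (adjusted p = 4.67e-05 by edgeR), with -0.52, -0.36 and -0.31 in the 3 batches, and -0.31 against 3 months (adjusted p = 0.00235). The fall against 24 months, -0.23 (adjusted p = 0.0805), was lost (adjusted p up to 0.173) without 24-month replicate 1, 2, 3, 4, 7, 12 or 14 or 28-month replicate 5, 6, 7, 9, 11, 12 or 16, and also without any single batch (adjusted p up to 0.5) or with the mice of those ages alone (adjusted p = 0.107). The fall against 3 months was lost without batch 3 (-0.17, adjusted p = 0.175).

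Pcna, the polymerase clamp, changed less. It ran from 88.5 to 139 CPM (median 106) at 3 months, from 96.3 to 126 (110) at 9, from 99.4 to 124 (111) at 15, from 93.5 to 123 (109) at 24 and from 73.6 to 114 (101) at 28 months. Of the 18 mice at 28 months, 16 lay below the 15-month median and 15 below each of the 24-month and 3-month medians, with overlapping ranges. The log2 fold change was -0.17 ± 0.05 against 15 months (adjusted p = 0.00598 by edgeR; -0.17, -0.04 and -0.25 in the 3 batches), -0.13 against 3 months (adjusted p = 0.033) and -0.13 against 24 months (adjusted p = 0.0906). The last of these calls was lost in 74 of 83 fits that left out 1 mouse (adjusted p up to 0.195), and the call against 3 months without 3-month replicate 5 or 14 or 28-month replicate 9 (adjusted p up to 0.156). The call against 15 months was lost without batch 3 (-0.12, adjusted p = 0.115). That against 24 months was lost without any single batch (adjusted p up to 0.623) or by DESeq2 (adjusted p = 0.111). That against 3 months was lost without batch 1 or 3 (adjusted p = 0.131 and 0.28), without the 5 mice of low smooth muscle score or with epithelium and B cell scores in the fit (adjusted p = 0.109 in both).

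The helicase subunit Mcm2 ran from 34.6 to 58.4 CPM (median 42.4) at 3 months, from 33.5 to 48.9 (42) at 9, from 30.6 to 52.1 (45) at 15, from 33.9 to 51.8 (42.4) at 24 and from 26.5 to 48.8 (39.2) at 28 months. It fell by 0.18 ± 0.07 on the log2 scale against 15 months (adjusted p = 0.0397 by edgeR), mostly in batch 1, with -0.33, -0.05 and -0.04 in the 3 batches and an adjusted p of 0.559 without batch 1. Against 3 months it was -0.16 (adjusted p = 0.0558), which turned to -0.09 (adjusted p = 0.323) without the 5 mice of low smooth muscle score and to -0.06 (adjusted p = 0.476) with epithelium and B cell scores in the fit. It was also lost without batch 1 or 3 (adjusted p = 0.223 and 0.365), with the smooth muscle score in the fit (adjusted p = 0.12), with the mice of those ages alone (adjusted p = 0.151), and without 3-month replicate 10, 14 or 16 or 28-month replicate 6 or 9 (adjusted p up to 0.166). Of the other helicase subunits, Mcm4 (-0.16) and Mcm5 (-0.21) fell against 15 months, and Mcm3, Mcm6 and Mcm7 did not pass, at -0.16, -0.10 and -0.09. Cdt1 was at 0.04 against 15 months (interval -0.10 to 0.17) and 0.06 against 3 months (-0.07 to 0.20).

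Among the 6 G1 cyclins, kinases and E2F1, 4 fell against 15 months and 4 against 3 months (66.7% in both, beside 22.2% and 25.9% of all genes), and none was called against 24 months, where 1 had an unadjusted p below 0.05. The cyclins E are partners of Cdk2 at the entry to S phase. Ccne2 was the one member called between 15 and 24 months, at -0.25 ± 0.09 (adjusted p = 0.0791 by edgeR), and Ccne1 did not pass there (-0.21, adjusted p = 0.171). Ccne2 ran from 6.93 to 17.2 CPM (median 10.8) at 3 months, from 5.72 to 12.9 (8.95) at 9, from 7.79 to 15.4 (10.5) at 15, from 7.39 to 11.8 (8.91) at 24 and from 5.36 to 13 (8.52) at 28 months. Its median was thus lower at 9 than at 3 or 15 months, a step that did not pass between 3 and 9 months (-0.14, adjusted p = 0.435). At 28 months Ccne2 was at -0.32 against 15 months (adjusted p = 0.00394), at -0.31 against 3 months (adjusted p = 0.00365) and at -0.07 against 24 months (interval -0.25 to 0.10). The call against 3 months was lost without batch 3 (-0.20, adjusted p = 0.188). The call between 15 and 24 months was lost without 15-month replicate 3, 4, 6, 8 or 16 or 24-month replicate 1, 8, 10, 13, 15, 16 or 17, each of which left 0 members called, and without 24-month replicate 7 there were 2.

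Ccne1 ran from 5.32 to 10.6 CPM (median 7.51) at 3 months, from 4.41 to 9.65 (7) at 9, from 4.89 to 10.4 (7.87) at 15, from 4.68 to 8.75 (6.49) at 24 and from 3.46 to 8.23 (6.01) at 28 months. It stood at -0.34 ± 0.10 at 28 against 15 months (adjusted p = 0.0045 by edgeR), -0.30 against 3 months (adjusted p = 0.0102) and -0.13 against 24 months (adjusted p = 0.466). The call against 3 months was lost without batch 3 (-0.24, adjusted p = 0.118). The change against 15 months was -0.35, -0.28 and -0.31 in the 3 batches, and 15 of 18 mice at 28 months lay below the 15-month median. It also had the widest spread of the set between mice of 1 age and batch, an SD of 0.289 on the log2 scale, where the median over all genes was 0.197.

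Cyclin D1 (Ccnd1), which couples growth signals to G1, ran from 115 to 217 CPM (median 136) at 3 months, from 118 to 172 (136) at 9, from 119 to 177 (153) at 15, from 125 to 172 (145) at 24 and from 92.6 to 159 (138) at 28 months. The median was highest at 15 months, although no step between 3, 9 and 15 months passed, and the highest value was that of a 3-month mouse. The log2 fold change was -0.19 ± 0.06 against 15 months (adjusted p = 0.014 by edgeR), with -0.30, -0.15 and -0.02 in the 3 batches, and -0.15 against 3 months (adjusted p = 0.0436). The call against 15 months was lost without batch 1 (-0.11, adjusted p = 0.312) or batch 2 (-0.18, adjusted p = 0.101). Of the mice at 28 months, 16 of 18 lay below the 15-month median and 8 below the 3-month median. Without the 5 mice of low smooth muscle score the change against 3 months was -0.09 (adjusted p = 0.242), and with epithelium and B cell scores in the fit it was -0.07 (adjusted p = 0.398). It was also lost without batch 1 (adjusted p = 0.199) or batch 3 (-0.08, adjusted p = 0.366), with the mice of those ages alone (adjusted p = 0.136), and without 3-month replicate 10, 14 or 16 or 28-month replicate 9 (adjusted p up to 0.191).

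The G1 kinases changed little. Cdk4 fell by 4.99% at 28 against 3 months (adjusted p = 0.0745 by edgeR), and Cdk2 stood at 0 against 3 months (interval -0.07 to 0.07) and -0.01 against 15 months (-0.08 to 0.06). These were the least variable members, with SDs of 0.0999 and 0.105 on the log2 scale within age and batch. E2f1, the activating transcription factor, fell by 15.4% against 15 months (adjusted p = 0.0236) and did not pass against 3 months (-0.10, adjusted p = 0.354).

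**Figure D3:**
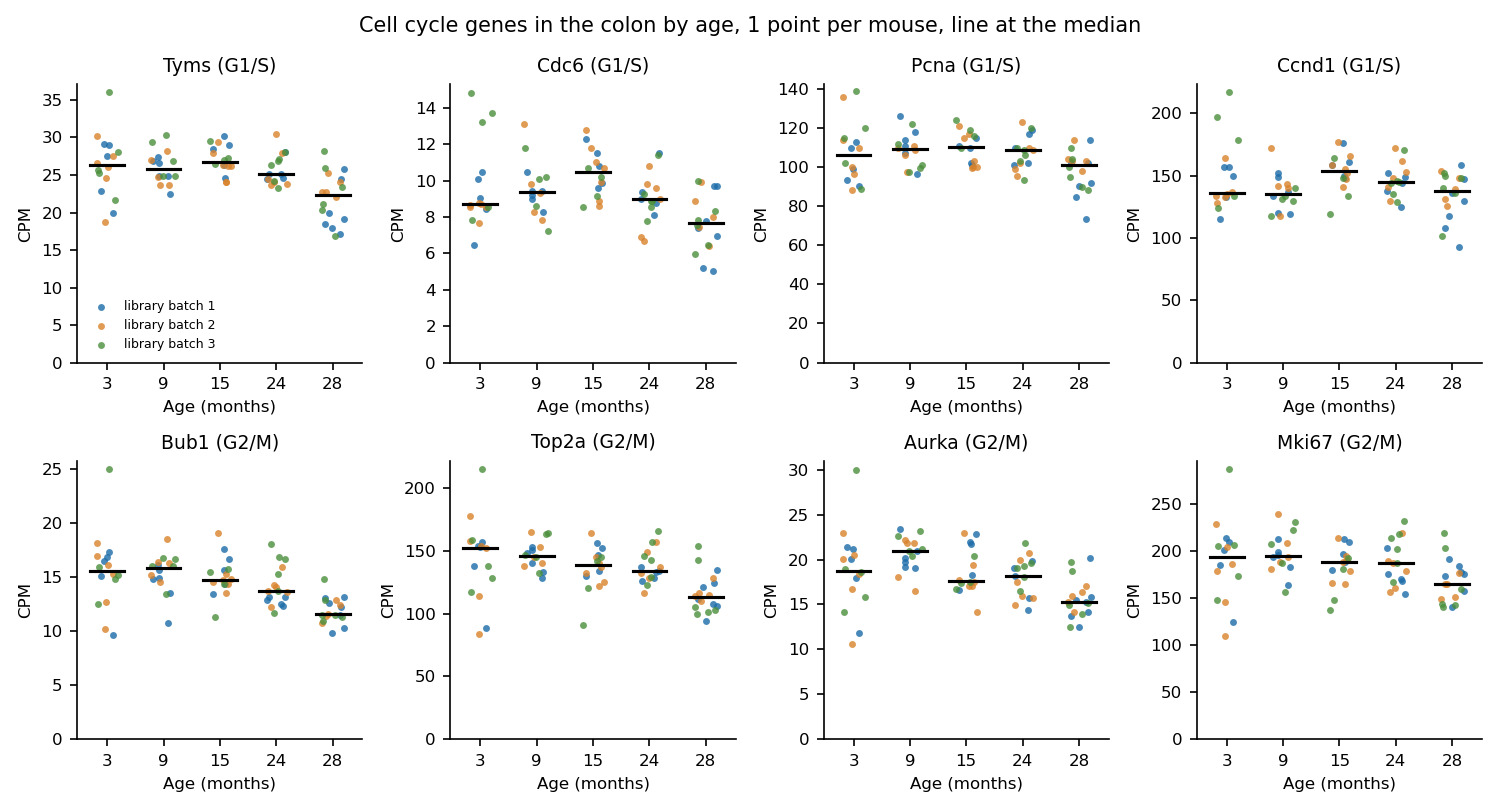
CPM of 4 G1/S members (upper row) and 4 G2/M members (lower row) against age in months, 1 point per mouse, coloured by library batch, with a black line at the median. The medians at 28 months are lowest in 7 of the 8 genes, the exception being Ccnd1, and the points of all ages overlap.

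In mitosis, the checkpoint kinase Bub1, which holds anaphase until chromosomes are attached, had the lowest p of all 42 members over the 5 ages. It ran from 9.63 to 25 CPM (median 15.6) at 3 months, from 10.8 to 18.5 (15.8) at 9, from 11.3 to 19.1 (14.7) at 15, from 11.7 to 18.1 (13.7) at 24 and from 9.85 to 14.8 (11.6) at 28 months. All 18 mice at 28 months lay below the 3-month median and 17 below the medians at 15 and at 24 months, and 10 lay below the lowest 24-month mouse. The log2 fold change was -0.38 ± 0.07 against 3 months (adjusted p = 1.1e-05 by edgeR), a fall of 22.9%, with -0.33, -0.33 and -0.45 in the 3 batches. It was -0.34 against 15 months (adjusted p = 8.64e-05) and -0.24 against 24 months (adjusted p = 0.0233). The last call was lost without batch 2 (adjusted p = 0.131) or batch 3 (adjusted p = 0.233). Its relative Bub1b, which acts in the same checkpoint, was not called in any comparison (-0.13 against 3 months, interval -0.27 to 0).

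Aurora kinase A (Aurka), which builds the spindle poles, ran from 10.6 to 30 CPM (median 18.7) at 3 months, from 16.5 to 23.4 (21) at 9, from 14.2 to 23 (17.6) at 15, from 14.4 to 21.8 (18.2) at 24 and from 12.5 to 20.2 (15.3) at 28 months. Its median was highest at 9 months, and 15 of 18 mice at 28 months lay below the medians at 15 and at 24 months. The log2 fold change was -0.27 ± 0.08 against 15 months (adjusted p = 0.0043 by edgeR), -0.26 against 3 months (adjusted p = 0.00401) and -0.21 against 24 months (adjusted p = 0.0785). The last call was lost (adjusted p up to 0.143) without 24-month replicate 1, 2, 4, 7, 9, 11, 12 or 14 or 28-month replicate 2, 6, 7, 9, 11, 12, 13, 16, 17 or 18. It was also lost without any single batch (adjusted p up to 0.334) and with epithelium and B cell scores in the fit (adjusted p = 0.182). Against 15 months the batches gave -0.38, -0.18 and -0.17, and without batch 1 the call was lost (adjusted p = 0.152). Without 3-month replicate 14, Aurka was called higher at 9 than at 3 months (0.21, adjusted p = 0.0839), the 1 member then called, whereas with all mice it stood at 0.15 (adjusted p = 0.293). Aurora kinase B (Aurkb), part of the chromosomal passenger complex, fell by 11.3% against 3 months and fell by 13.4% against 24 months, and Plk1, which drives mitotic entry, was not called in any comparison.

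Top2a, which untangles sister chromatids, was also among the 3 G2/M members of lowest p. It ran from 83.8 to 215 CPM (median 152) at 3 months, from 128 to 165 (146) at 9, from 90.7 to 164 (139) at 15, from 116 to 166 (134) at 24 and from 94.1 to 154 (113) at 28 months. The medians were lower at each later age, and 12 of 18 mice at 28 months lay below the lowest 24-month mouse, whereas none lay below the lowest 3-month mouse. The log2 fold change was -0.30 ± 0.07 against 3 months (adjusted p = 0.000418 by edgeR), with -0.25, -0.25 and -0.35 in the 3 batches. It was -0.23 against 15 months (adjusted p = 0.00766) and -0.25 against 24 months (adjusted p = 0.0202), and both of these were lost without batch 1 (adjusted p = 0.175 and 0.178), the latter also without batch 3 (adjusted p = 0.119). Survivin (Birc5), also of the passenger complex, fell by 12.4% against 15 months and fell by 10.8% against 3 months. The centromere genes Cenpa, Cenpe and Cenpf were not called in any comparison, with Cenpf at 0 against 15 months (interval -0.17 to 0.17).

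Mki67, the coat protein of mitotic chromosomes that is widely used to stain dividing cells, ran from 110 to 287 CPM (median 194) at 3 months, from 157 to 239 (195) at 9, from 137 to 214 (188) at 15, from 154 to 232 (187) at 24 and from 140 to 219 (165) at 28 months. The median stayed level up to 24 months and was lowest at 28, where 15 of 18 mice lay below the medians at 15 and 24 months. Of the comparisons with 28 months the change passed against 3 months alone, at -0.17 ± 0.07 (adjusted p = 0.0583 by edgeR). It was -0.16 against 24 months (adjusted p = 0.175) and -0.14 against 15 months (adjusted p = 0.126). The call against 3 months was lost without any single batch, and without 3-month replicate 1, 3, 4, 7, 11, 12 or 14 or 28-month replicate 5, 6, 7 or 16 (adjusted p up to 0.242). It was also lost with epithelium and B cell scores in the fit (adjusted p = 0.191) and with the mice of those ages alone (adjusted p = 0.149). Against 15 months it was called without 15-month replicate 5 or 16, without 28-month replicate 3 (adjusted p down to 0.0829) without batch 3 (adjusted p = 0.0746) or with the mice of those ages alone (adjusted p = 0.0961).

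Cdk1, the kinase that starts mitosis, ran from 20.3 to 52.2 CPM (median 37) at 3 months, from 34.7 to 44.3 (39.7) at 9, from 29.2 to 43.4 (35.8) at 15, from 29.8 to 43.5 (37) at 24 and from 24 to 44 (32.5) at 28 months. In each of the comparisons with 28 months 15 of 18 mice lay below the younger median. It passed narrowly against 3 months (-0.17 ± 0.07, adjusted p = 0.0452 by edgeR), 15 months (-0.16, adjusted p = 0.0863) and 24 months (-0.19, adjusted p = 0.0901), and the last of these was lost in 66 and the one against 15 months in 68 of 83 fits without 1 mouse (adjusted p up to 0.156 and 0.196). The call against 3 months was lost without 3-month replicate 1, 5, 7 or 14 (adjusted p up to 0.171), without any single batch (adjusted p up to 0.22) and with the mice of those ages alone (adjusted p = 0.199). The call against 15 months was also lost without batch 1 (-0.10, adjusted p = 0.477) or batch 3 (adjusted p = 0.205) and by DESeq2 (adjusted p = 0.104). The call against 24 months was lost without any single batch (adjusted p up to 0.403). With epithelium and B cell scores in the fit all of these calls were lost (adjusted p between 0.154 and 0.181).

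Cyclin B1 (Ccnb1), its partner, was not called in any comparison. It ran from 16.9 to 49.1 CPM (median 35) at 3 months, from 30 to 47.1 (37.1) at 9, from 24.8 to 44.8 (33) at 15, from 20.7 to 42.9 (34.2) at 24 and from 25 to 41.8 (32.5) at 28 months. Its log2 fold change at 28 months was -0.04 against 3 months (interval -0.21 to 0.14), -0.07 against 15 months (-0.25 to 0.10) and -0.08 against 24 months (-0.25 to 0.09), and the first interval does not reach the change seen for Bub1. Cyclin B2 (Ccnb2) stood at 0.02 against 3 months (-0.15 to 0.18), and cyclin A2 (Ccna2) fell by 10.3% against 3 months (adjusted p = 0.0941). The transcription factor Foxm1 fell by 9.67% against 3 months and fell by 11.9% against 24 months (adjusted p = 0.0889 and 0.0966).

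Of the 2 partners of the anaphase promoting complex, the E2 enzyme Ube2c fell by 17.8% against 3 months (adjusted p = 0.00253 by edgeR) and fell by 12.5% against 15 months, and Cdc20 was not called (-0.09 against 3 months, interval -0.26 to 0.07). Of the 5 spindle and cytokinesis genes, 3 (60%, beside 25.9% of all genes) fell against 3 months, 1 (20%, beside 22.2%) against 15 months and 1 (20%, beside 6.01%) against 24 months. Those that fell against 3 months were Kif11 (log2 fold change -0.17), Kif23 (-0.18) and Tpx2 (-0.18), and Kif11, the motor that pushes the spindle poles apart, was the one that also fell against 15 and 24 months. Kif20a and Nusap1 were called in none of the 6 comparisons.

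Leaving out single mice changed the number of calls. The 23 calls against 3 months became 10 without 3-month replicate 14, 14 without 3-month replicate 1, 5 or 7 or 28-month replicate 6, and 15 without 28-month replicate 9. The 12 calls against 24 months became 5 without 24-month replicate 1 or 28-month replicate 6, 7 or 12. They became 6 without 24-month replicate 4, 7, 12 or 14 or 28-month replicate 9, 11 or 16, and 7 without 24-month replicate 2, 3, 9 or 11 or 28-month replicate 13 or 18. The 19 calls against 15 months stayed between 14 and 22 with any 1 mouse left out. With the 5 mice of low smooth muscle score left out the counts were 20 against 3 months, 18 against 15 months and 10 against 24 months. A fit of the 28-month and 3-month mice alone called 9 members. These counts are given without the share of all genes called in the same fits.

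Markers of other cells moved at the same age. B cell markers were lower at 28 months, 6 of 6 against 24 months with a median log2 fold change of -1.04, 5 of 6 against 15 months (-0.81) and 5 of 6 against 3 months (-1.46). The B cell score, the mean log2 CPM of the 6 markers, ran from -0.11 to 3.99 at 3 months, from 0.17 to 3.6 at 9, from 0.68 to 3.45 at 15, from 0.39 to 3.45 at 24 and from -0.4 to 2.08 at 28 months, and none of its markers was at 0 on average at any age. Of 6 germinal center markers, 3 were lower and 1 higher against 15 months, their score running from 0.12 to 0.86 at 28 months and from 0.49 to 1.55 at 15 months. With the B cell score in the fit, 21 members were called against 3 months, 19 against 15 months and 10 against 24 months. Of 7 epithelial markers, 3 were lower against 3 months (median -0.09), 1 against 15 months (-0.05) and 0 against 24 months by edgeR, where 1 had an unadjusted p below 0.05. The epithelial score ran from 9.94 to 10.31 at 28 months, from 10.12 to 10.42 at 3, from 10.13 to 10.57 at 9, from 9.54 to 10.36 at 15 and from 10.09 to 10.35 at 24 months. With the epithelium and B cell scores together in the fit, 10 members were called against 3 months, 15 against 15 months and 6 against 24 months. Of the 10 against 3 months, 9 were lower and Cdt1 was higher (0.15, adjusted p = 0.0491 by edgeR). The share of all genes called in the fits with these scores is not given, so the counts cannot be set against it.

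Other epithelial and immune lists were read beside the 22.2% of all genes that were lower and 20.2% higher against 15 months, and the 25.9% lower and 23.5% higher against 3 months. Goblet cell markers were lower in 5 of 6 against 15 months (median -0.24) and 5 of 6 against 3 months (-0.25), with 1 higher in the latter. Absorptive colonocyte markers were lower in 3 of 6 against 15 months (-0.15) and plasma cell markers in 5 of 6 (-0.59). Against 3 months Car4 (-0.33) and Ceacam20 (-0.19) were the absorptive markers called. Xbp1 was the plasma cell marker called there (-0.12, adjusted p = 0.0325 by edgeR). The other plasma cell markers did not pass against 3 months, with Jchain at 0.11, Mzb1 at 0.29 and Tnfrsf17 at -0.27. Macrophage markers were higher in 4 of 6 against 15 months (0.29) and 5 of 6 against 3 months (0.34). Of 6 crypt stem cell markers, 2 were higher against 15 months, Rnf43 and Znrf3, and against 3 months 3 were higher and Lgr5 lower (-0.26, adjusted p = 0.0232). Of 6 T cell markers, 2 were higher against 15 months. Against 15 months the 2 of 6 T cell and 2 of 6 crypt stem cell markers stand beside the 20.2% of all genes that were higher. The 3 of 6 crypt stem cell markers higher against 3 months stand above the 23.5% of all genes, in a list of 6 genes and without a test. Of 6 smooth muscle markers none was called by edgeR in these comparisons, with 0 at an unadjusted p below 0.05. With the smooth muscle score in the fit 23 members were called against 3 months, 19 against 15 months and 9 against 24 months. The part of the other lists of this paragraph in the result was not tested.

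The spread between mice differed by age and phase. Over the G2/M members the median SD on the log2 scale was 0.369 at 3 months and 0.163, 0.197, 0.184 and 0.205 at 9, 15, 24 and 28 months, whereas over all genes it was between 0.176 and 0.207. The SD was largest at 3 months for 23 of 23 G2/M members, 12 of 19 G1/S members (63.2%) and 31.4% of all genes. For G1/S members the medians were 0.251 at 3 months, 0.149 at 9, 0.178 at 15, 0.179 at 24 and 0.259 at 28 months, so that the oldest mice spread as widely as the youngest. The wide spread at 3 months came from both ends, since replicates 13, 15, 10 and 16 had the lowest G2/M means of that age (4.31, 4.48, 4.8 and 4.89) and replicate 14 the highest (5.74). Replicates 10 and 16 are also among the 5 mice of low smooth muscle score, at 7.04 and 6.96. Without those 5 mice the median SD of G2/M members at 3 months was 0.397, with 23 of 23 still widest at that age. That of G1/S members was 0.244, with 10 of 19 widest at 3 and 8 at 28 months, against 20.9% of all genes widest at 3 months.

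For the 13 members described one by one, the mean distance of a mouse from its age median was compared between 3 months and the other ages, as a description without a test, since the spread had been seen first. On the log2 scale Mki67 deviated by 0.25 at 3 months and 0.14 at the other ages, Top2a by 0.24 and 0.12, Cdk1 by 0.25 and 0.12, Aurka by 0.26 and 0.14, Ccnb1 by 0.29 and 0.17 and Bub1 by 0.22 and 0.12. Among the G1/S genes, Pcna (0.17 and 0.10), Ccnd1 (0.19 and 0.12) and Tyms (0.17 and 0.11) had the same order. Ccne2 (0.26 and 0.21), Cdc6 (0.22 and 0.17) and Ccne1 (0.24 and 0.22) were closer between the ages, and Mcm2 had 0.16 at both.

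Members of a phase varied together from mouse to mouse, and the phases varied largely apart. After age and library batch were removed, the 171 pairs of G1/S members had a median Pearson's r of 0.66 (range 0.13 to 0.95) over 83 mice, and the 253 pairs of G2/M members had 0.83 (0.63 to 0.94). The 437 pairs of 1 member from each phase had 0.21 (-0.30 to 0.78), where the median over all 167893650 pairs of genes tested was 0 and the 95th percentile 0.38. These pairs share the libraries and their scaling, and they are given as a description without a test. Some G1/S genes stood between the phases: Rrm1 had a median r of 0.71 with G1/S and 0.60 with G2/M members, Tyms 0.70 and 0.51, and Mcm7 0.75 and 0.50. The G1 cyclins stood apart from the G2/M members, with median r of 0.03 for Ccne2, -0.05 for Ccne1 and 0.02 for Ccnd1 with them. Some other G1/S members did so too, with 0.03 for Cdc6, 0.06 for E2f1, 0.1 for Cdk2 and 0.12 for Cdt1.

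**Figure D4:**
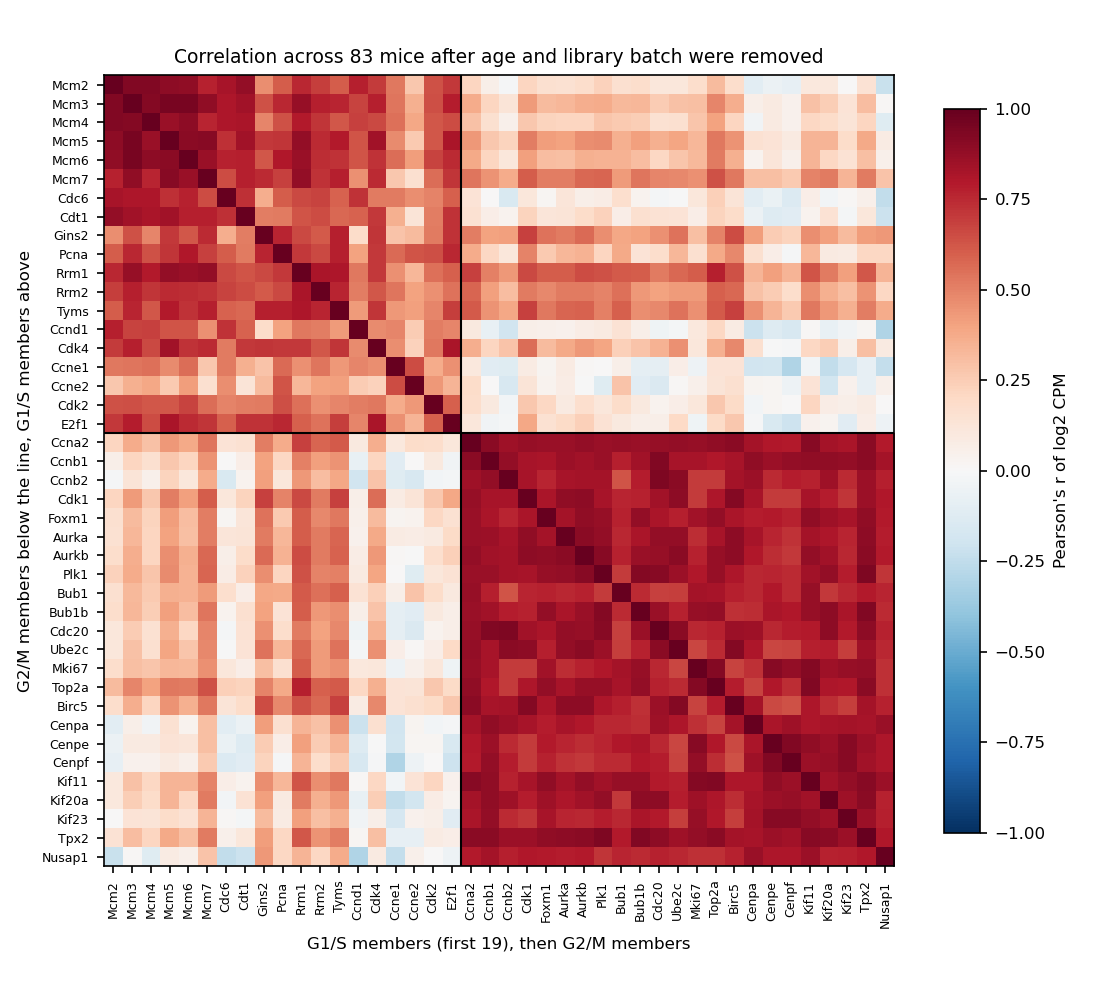
Colour gives Pearson's r of log2 CPM across 83 mice, after age and library batch were removed, for each pair of the 42 members, with black lines between the 19 G1/S members and the 23 G2/M members. The G2/M block is the most uniform, with r between 0.63 and 0.94, and the block between the phases is pale, with a median of 0.21.

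With ages left in, 8 relations across mice were computed and adjusted as 1 family. Mki67 and Top2a had r = 0.91 and Spearman's rho = 0.89 (permutation p = 1e-05 for both, the smallest the 100000 permutations can give, adjusted p = 2.67e-05), with 0.85, 0.93 and 0.95 in the 3 batches and 0.89 without the 2 mice farthest from the Mki67 median. Mki67 and Cdk1 had r = 0.74 and rho = 0.71 (adjusted permutation p = 2.67e-05 for both). Batch by batch r was 0.73, 0.82 and 0.75, it was 0.67 without 2 mice, and within ages r was between 0.33 at 15 months and 0.87 at 3 months. The helicase subunits Mcm2 and Mcm6 had r = 0.87 and rho = 0.88 (adjusted permutation p = 2.67e-05 for both), batch by batch 0.88, 0.82 and 0.92, and 0.86 without 2 mice. Mki67 and Mcm2, in contrast, had r = 0.22 (permutation p = 0.0422, adjusted 0.0766) and rho = 0.19 (adjusted permutation p = 0.123), batch by batch 0.12, 0.14 and 0.37, and 0.16 without 2 mice. Within ages r of this pair was between -0.12 at 9 months and 0.54 at 15 months. The value at 15 months was above that of Mki67 with Cdk1, so the contrast did not hold at that age. Mki67 and the stem cell marker Lgr5 had r = 0.22 and rho = 0.22 (adjusted permutation p = 0.0766 and 0.0907), batch by batch 0.16, -0.22 and 0.51, so that the relation did not hold within batch 2. Mki67 had r = 0.12 with Ccnd1 and 0.04 with the epithelial marker Epcam (adjusted permutation p = 0.358 and 0.702).

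Other genes of the pathway were read from 4 further lists, beside the 22.2% of all genes that were lower against 15 months, 25.9% against 3 months and 6.01% against 24 months. Of 33 other DNA replication genes, 18 (54.5%) fell and 0 rose against 15 months (median log2 fold change -0.15), 15 (45.5%) fell and 1 rose against 3 months and 11 (33.3%) fell against 24 months. The lowest p against 15 months were those of the replication kinase Cdc7 (-0.44 ± 0.07, adjusted p = 2.12e-07 by edgeR), of the helicase partners Cdc45 (-0.37) and Gins3 (-0.38) and of the exonuclease Exo1 (-0.43). Of 43 other mitotic genes, 16 (37.2%) fell and 0 rose against 15 months (median -0.14), 15 (34.9%) fell against 3 months and 10 (23.3%) against 24 months, led against 15 months by Pbk (-0.31 ± 0.08, adjusted p = 0.000935), the kinetochore protein Nuf2 (-0.28), the checkpoint protein Mad2l1 (-0.21) and the midzone protein Prc1 (-0.23). Like the G2/M members, 41 of these 43 were above 0 between 3 and 9 months and 43 below 0 between 9 and 15 months, with 0 called by edgeR in both and 5 at an unadjusted p below 0.05 in each.

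Among 15 other E2F factors, cyclins, CDKs and CDC25 genes, 6 (40%) fell and 1 rose against 15 months, 6 fell against 3 months, and 4 (26.7%) fell and 1 rose against 24 months. Cyclin D3 (Ccnd3) was at -0.28 (adjusted p = 7.61e-05 by edgeR), E2f2 at -0.38, the repressor E2f6 at -0.17 and the E2F partner Tfdp1 at -0.17, and Cdk6 was the gene that rose, at 0.14. Of 15 CDK inhibitors, pocket proteins and checkpoint genes, 14 were tested and the direction was mixed. Against 15 months 4 were lower (28.6%, near the 22.2% of all genes) and 2 higher, against 3 months 6 were lower (42.9%) and 1 higher, and against 24 months 0 were called by edgeR, with 4 at an unadjusted p below 0.05. The checkpoint kinases Chek1 (-0.33 ± 0.08, adjusted p = 0.000306) and Chek2 (-0.16) and the stress gene Gadd45a (-0.24) fell, and the pocket protein Rbl2, a part of the DREAM complex in resting cells, rose (0.19, adjusted p = 0.000461). Cdkn2a had too few counts to be tested.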

How the data were processed

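RNA was isolated from the proximal colon with QIAzol and chloroform, and strand-specific libraries of polyadenylated RNA were made in 3 preparation batches. The authors trimmed paired reads with cutadapt 2.8, mapped them to GRCm38 with HISAT2 2.1.0, kept unique alignments with SAMtools 1.9 and counted read pairs per Ensembl gene, by strand, with featureCounts of Subread 2.0.1. The authors deposited raw whole counts of read pairs for each gene in each mouse, neither normalized nor pooled, and age was read from the labels of each mouse. Symbols, positions and merged exon lengths came from GENCODE vM21 of the same build, a release before that of the methods. It held 37652 of 37764 genes and all 42 members.

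Here genes were filtered with filterByExpr by age and scaled by TMM in edgeR 4.0.16 (R 4.3.3). A quasi-likelihood model of age group and batch was fitted to 83 mice (76 residual degrees of freedom), each comparison was tested with its F-test, and p-values were adjusted by Benjamini-Hochberg over 18325 genes, with the study's threshold of 0.1. Confidence intervals of fold changes are at 95%. Scores average the log2 CPM of their genes (prior count 2). Alternatives were DESeq2 1.42.0, other scalings, filters and covariates, and each mouse or batch left out.

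Values at each age are given for Mki67, Top2a, Pcna, Mcm2, Cdk1, Ccnb1, Ccne1 and Ccnd1 and, in each phase, for the 3 members with the lowest p over the 5 ages; other lists are described by counts and up to 4 genes of lowest p at 28 against 15 months. The members and all lists were chosen with earlier results of these data known. The single-batch fits, the B cell score as sole covariate, the fits without 5 mice of low smooth muscle score or without 3-month mice, the description of spread and the correlations of member pairs were chosen after seeing the data. In all 649 pairs of mice of 1 age the spread between mice exceeded counting noise, so every mouse was counted as 1 replicate. The p-values set differences between ages against the spread between mice. Of the 8 relations across mice that were adjusted together, 1 is not reported here.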

Additional observations from a re-analysis of the deposited data

How the results depend on the processing

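With any 1 mouse left out, the members called ranged from 0 to 1 between 3 and 9 months, 0 to 2 between 15 and 24 months, 5 to 16 between 24 and 28 months, 10 to 25 between 3 and 28 months, 14 to 22 between 15 and 28 months, 16 to 29 for any difference over the ages and 2 to 14 for departure from a straight line. At an adjusted p below 0.05 the counts were 0 at 24 against 15 months, 4 at 28 against 24, 15 at 28 against 3 and 2 for departure. With no filter on low counts they were 0 at 24 against 15 months, 5 at 28 against 24 and 2 for departure, with more genes tested. With the mice of the 2 ages alone they were 2 at 24 against 15 months and 9 at 28 against 3. With epithelium and B cell scores as covariates they were 6 at 28 against 24 months, 10 at 28 against 3 and 8 for departure. Without batch 1 the counts were 1 at 28 against 24 months, 10 at 28 against 3, 6 at 28 against 15, 14 for any difference and 0 for departure. Without batch 2 they were 0 at 24 against 15 months, 5 at 28 against 24, 14 at 28 against 3, 15 for any difference and 1 for departure, and without batch 3 they were 0, 1, 6 and 10 for the first 4 of these. Without the 5 mice of low smooth muscle score departure was called for 3. Ccnb1 at 28 against 3 months, reported as -0.04, was 0 with epithelium and B cell scores, 0, 0.01 and 0.02 without 3-month replicates 1, 7 and 14, and -0.07 at the lowest, without replicate 13. DESeq2, its size factors, upper quartile scaling, a minimum of 10 counts and no batch term left each count within 1.5 times. The cause of these shifts was not tested, and the share of all genes called in these refits is not given beside the counts.

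Replicate numbers do not pair the mice: same-numbered mice of different ages had a median correlation of 0.021 in their deviations from the age means, and 3 of 83 mice correlated best with their own number. With the replicate number as a block, 0 members were called at 24 against 15 months, 10 at 28 against 24, 19 at 28 against 3, 20 at 28 against 15, 25 for any difference and 7 for departure. Depth did not limit the members described, with at least 122 counts in each mouse, and Cdkn2a was not tested for lack of counts.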
